A study of Mus musculus with 3 samples.

Results

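The genes examined were 10 that encode the T cell receptor complex and the proteins that act next to it: the CD3 chains Cd3d, Cd3e and Cd3g, the zeta chain Cd247, the co-receptors Cd4 and Cd8a, the kinases Lck and Zap70 and the adaptors Lat and Themis. A peak of 5-hydroxymethylcytosine (5hmC) was assigned to a gene when its midpoint lay in the gene's RefSeq span or within 5 kb of it. By this rule 85 of the 208468 distinct peaks belonged to the 10 genes, or 0.0408% of the list, with an exact Poisson interval at 95% of 67.9 to 105 peaks. A peak was found at 9 of the 10 genes, with Themis as the exception, against 76.1% of autosomal and 73.1% of all protein-coding genes.

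The series sampled mouse bone marrow cells. It holds 2 samples of NIDF-AML and 1 of normal marrow. NIDF-AML is an acute myeloid leukaemia that 4 mutant genes induce: FLT3-ITD, DNMT3A R882H, IDH2 R140Q and NPMc, the mutant form of NPM1. Strain, age and the way the alleles were introduced are not given in the sources used here. 5hmC in sheared DNA was given an azide glucose, biotinylated by click chemistry, captured and sequenced, per the labels' protocols.

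The deposited lists of both leukaemia samples were used, and no list of normal marrow was analysed here. Both files hold the same 223267 lines and were treated as 1 list, with no replicate error and no comparison between leukaemia and normal marrow. Per the file headers, the treatment library had index 4 in both cases, and the control had index 5 for the first list and index 6 for the second. Which sample carries index 4 is not stated, so every value is one of "the index 4 library", and the leukaemia labels are not used to describe it. A line holds a position and no height. A gene without a peak is a gene where none was listed, and the read depth is unknown. Positions are rounded, in steps of 2 to 16 bp at these genes. In a mixture of marrow cells, the share of T cells and the amount of the mark per T cell cannot be told apart.

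The T cell receptor recognises peptides held by MHC molecules and cannot signal by itself, because its own chains have very short cytoplasmic tails. Signals leave through the CD3 and zeta chains, whose tyrosine motifs are phosphorylated by Lck, which the co-receptors bring to the receptor. Zap70 docks on the phosphorylated chains and phosphorylates Lat, on which further enzymes assemble. 5hmC is made from 5-methylcytosine by TET enzymes, is common along the bodies and at enhancers of genes in many tissues, and is affected in leukaemia by mutant IDH2, whose product 2-hydroxyglutarate inhibits TET enzymes. T cells mature in the thymus, and marrow holds mostly myeloid, erythroid and B lineage cells with fewer mature T cells.

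Peaks reached a promoter window of Cd3d, Lck and Zap70. The windows run from 250 bases before to 50 after each RefSeq start on GRCm38.p6, the assembly that mm10 is made from, and 9 of the 10 genes had entries, 13 windows in all, with no entry for Cd4. A peak overlapped 4 of the 13, at 3 of the 9 genes, against 5.4% of the 16457 autosomal protein-coding genes with an entry. These 4 sequences are shown because they are the places where peak and promoter coincide. They are RefSeq sequences, written 5′ to 3′ on the gene's strand, with the bases under the peak in capitals.
Cd3d, chr9:44981536-44981835, plus strand: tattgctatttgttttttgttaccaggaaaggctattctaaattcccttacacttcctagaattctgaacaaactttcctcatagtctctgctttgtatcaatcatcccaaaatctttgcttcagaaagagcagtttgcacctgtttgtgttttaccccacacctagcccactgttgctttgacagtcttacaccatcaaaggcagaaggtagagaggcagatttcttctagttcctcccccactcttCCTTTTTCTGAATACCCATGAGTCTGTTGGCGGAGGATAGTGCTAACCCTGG
Lck, downstream start, chr4:129558323-129558622, minus strand: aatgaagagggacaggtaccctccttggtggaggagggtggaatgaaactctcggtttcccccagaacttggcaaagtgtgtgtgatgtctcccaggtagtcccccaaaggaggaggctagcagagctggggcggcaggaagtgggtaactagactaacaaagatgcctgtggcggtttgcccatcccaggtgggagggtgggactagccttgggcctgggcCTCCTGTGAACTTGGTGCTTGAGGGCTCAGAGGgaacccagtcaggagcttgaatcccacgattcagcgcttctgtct
Zap70, first start, chr1:36761548-36761847, plus strand: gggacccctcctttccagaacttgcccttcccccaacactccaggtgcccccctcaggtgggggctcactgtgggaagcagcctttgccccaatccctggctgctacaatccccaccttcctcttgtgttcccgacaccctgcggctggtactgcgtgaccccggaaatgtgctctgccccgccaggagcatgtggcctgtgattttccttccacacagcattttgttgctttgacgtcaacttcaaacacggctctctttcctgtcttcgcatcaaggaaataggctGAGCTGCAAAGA
Zap70, second start, chr1:36764265-36764564, plus strand: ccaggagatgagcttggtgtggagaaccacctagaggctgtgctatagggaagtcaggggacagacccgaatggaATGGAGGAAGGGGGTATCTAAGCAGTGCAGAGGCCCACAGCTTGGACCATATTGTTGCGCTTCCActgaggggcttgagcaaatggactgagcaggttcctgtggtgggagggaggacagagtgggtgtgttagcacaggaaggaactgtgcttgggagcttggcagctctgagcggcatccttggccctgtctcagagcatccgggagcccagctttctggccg

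The Cd3d peak covered the annotated start itself and put 52 bases of the window under the peak. These bases held the window's 1 CG, the dinucleotide where most 5-methylcytosine and 5hmC of mammals lies. The peak at the downstream start of Lck also covered that start, and its 33 bases held none of the window's 5 CG. At the first start of Zap70 the peak began 38 bp downstream and took in the last 12 bases of the window, with no CG. At the second start the peak ended 111 bp upstream, with 65 bases in the window that held 1 of its 5 CG. Because positions at these genes are multiples of 4 or 8 bp, the borders of the capitals can be off by a few bases.

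Windows of the T cell receptor genes were poor in CG, with 1 to 10 and a median of 5, against a median of 14 over the 20085 autosomal windows. Over the autosomal windows, those that a peak overlapped had a median of 7 CG and the others 14. Among the 8852 windows with at most 10 CG, 7.44% had a peak. The share among the T cell receptor genes rests on 3 genes, and its difference from these shares was not tested.

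Other starts had peaks just past the window. At Cd8a a peak began 69 bp downstream of the start, at the upstream start of Lck 73 bp downstream, and at Cd247 167 bp downstream. The nearest peak to the start was 640 bp upstream for Lat, 1353 bp upstream for Cd3g and 2255 bp downstream for Cd3e. Of the 80 peak assignments of the 9 genes, 14 lay within 1 kb of an annotated start, or 17.5% (Wilson interval at 95%, 10.7 to 27.3%), against 4.91% over autosomal protein-coding genes. Zap70 gave 7 of the 14, and without it the share was 11.1% (7 of 63, Wilson interval 5.49 to 21.2%). The share depends on gene span. For genes up to 10 kb it was 18.8% in T cell receptor genes (3 of 16 at 3 genes) and 12.6% over all autosomal genes. For genes of 10 to 30 kb, Zap70 among them, it was 25.7% (9 of 35 at 4 genes) and 7.06%. For those of 30 to 100 kb it was 6.90% (2 of 29, all at Cd247) and 3.72%.

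Motif letters in the 13 windows were counted on both strands, as a description. CAGGTG, an E box, was in windows of 6 genes (Cd247, Cd3d, Cd3e, Cd3g, Lck and Zap70) and in 20.03% of all autosomal windows. GGAAGT, which ETS factors bind, was in windows of 5 genes (Cd247, Cd3d, Cd3e, Lck and Zap70) and in 24.99% of all windows. TGTGGT, a RUNX motif, was in windows of Lat, Lck and Zap70 (14.8% of all windows), and CTTTGA, a TCF/LEF motif, in windows of Cd247, Cd3d and Zap70 (14.2%). CAGCTG, a further E box, was in windows of Cd3g and Cd8a (15.6%). The letters AGATAA, which blood GATA factors bind, were in that of Cd3g (9.57%). None of the 6 motifs was in the windows of Themis. Hits of different motifs that share letters were not removed, and a gene with several windows had more chances to hold one.

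**Figure D1:**
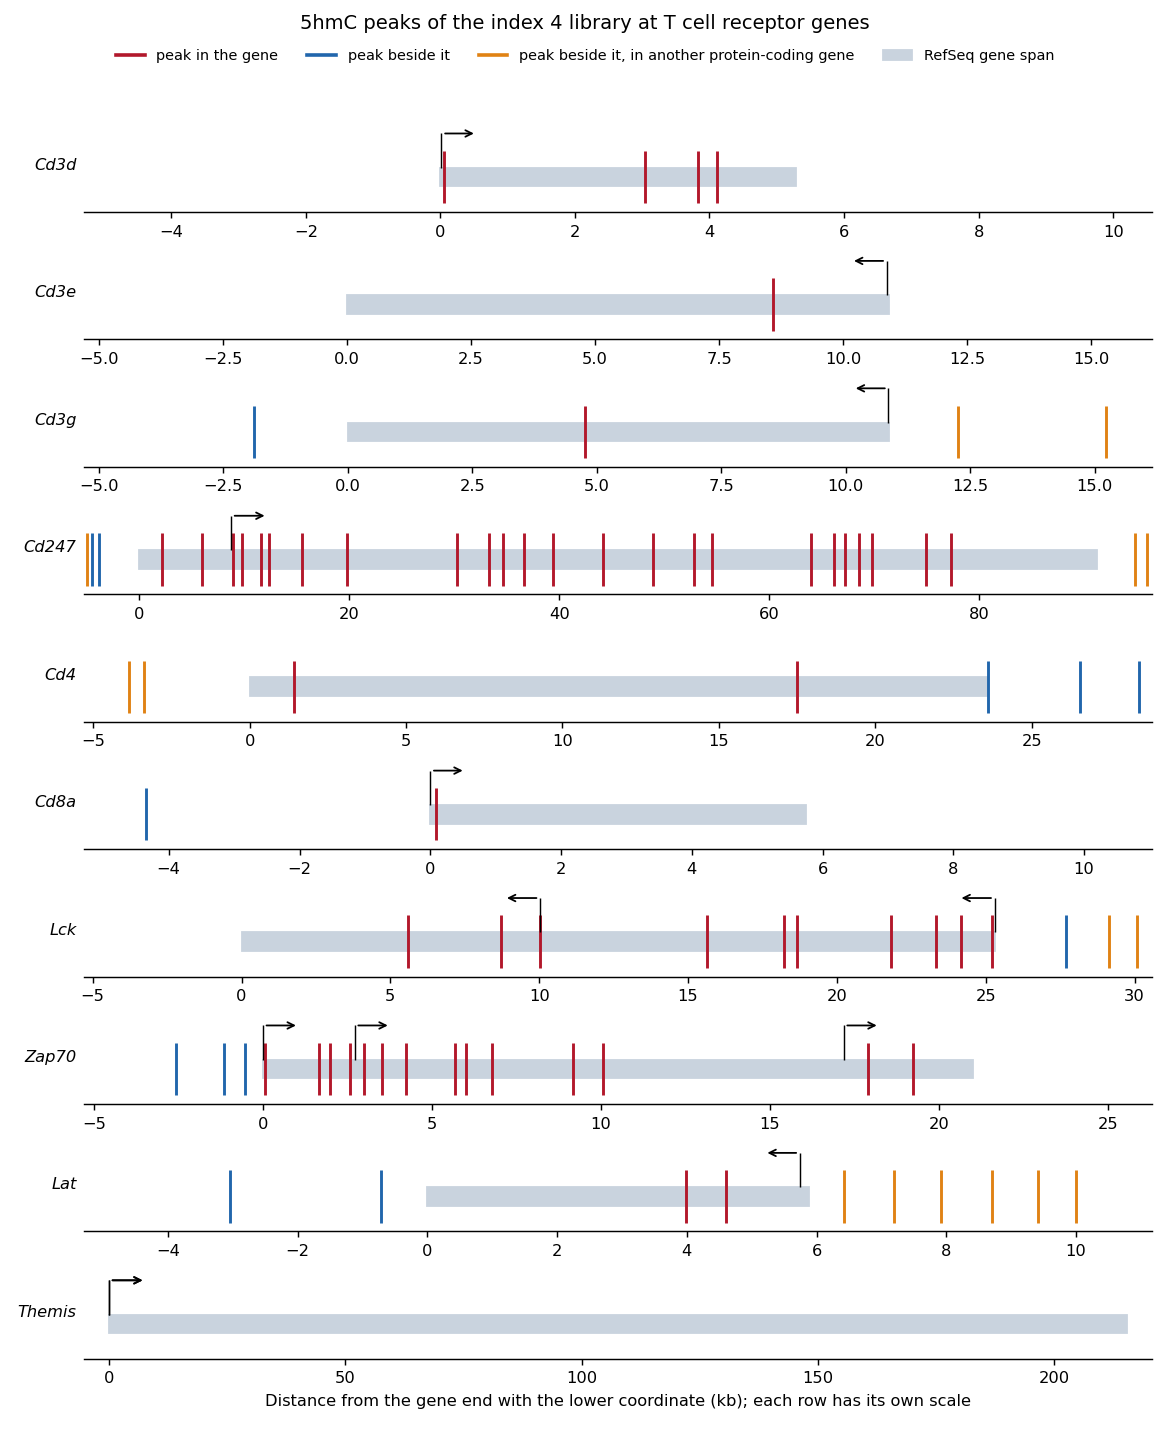
Peaks of the index 4 library along the 10 genes, one row per gene, against the distance in kb from the gene end with the lower coordinate. Grey bars are RefSeq gene spans, arrows are RefSeq starts (no entry for Cd4), and red, blue and orange lines are peaks in the gene, beside it, and beside it in another protein-coding gene. Zap70 has 12 of its 14 body peaks before the midpoint of the gene, 6 of the 10 peaks of Lat lie in another gene, and Themis has none.

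The CD3 chains differed among themselves, with Cd3d and Cd3g at 2.13 and 1.56 times the autosomal median density of 0.123 peaks per kb of span and flanks and Cd3e at 0.390 times. That median covers genes of all spans. Among autosomal genes of 10 to 30 kb, the class of Cd3g and Cd3e, it was 0.178. Of these genes 52.5% had more peaks than Cd3g and 73.9% more than Cd3e. Among genes up to 10 kb, the class of Cd3d, it was 0.0913, and 29.3% had more peaks than Cd3d. The CD3 genes sit together on chromosome 9, from 44969572 to 45009663. This 40.1 kb held 7 peaks (exact Poisson interval 2.81 to 14.4), or 0.175 per kb. Cd3d (44981769 to 44987052), the delta chain, held 4 of them in its 5.28 kb, at 44981784 to 44981864, 44984788 to 44984820, 44985576 to 44985608 and 44985848 to 44985920. Cd3g, the gamma chain (44969572 to 44980431), held 1 in its body, at 44974308 to 44974364. Its other 3 peaks lay outside it, 1 on the lower side and 2 in Cd3d, which are counted for both genes. Cd3e, the epsilon chain (44998735 to 45009663), held 1 peak at 45007300 to 45007356 and had no other within 5 kb. Cd3d thus had 0.757 peaks per kb of its body, a density exceeded by 5.81% of autosomal protein-coding genes. Cd3g and Cd3e, at 0.0921 and 0.0915 per kb of body, were exceeded by 52.9% and 53.0%. The Poisson intervals of Cd3d (0.206 to 1.94 per kb), Cd3g (0.00233 to 0.513) and Cd3e (0.00232 to 0.510) overlap.

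Cd247, the zeta chain with the most tyrosine motifs of the complex, had the most peaks of the 10 genes. It lies on chromosome 1 from 165779952 to 165871153, apart from the CD3 cluster, and had 29 peaks (19.4 to 41.6), of which 24 were in its 91.2 kb body. Per kb of span and flanks this was 0.287 (0.192 to 0.412), 2.34 times the autosomal median. Of autosomal protein-coding genes of 30 to 100 kb, whose median was 8 peaks, 9.88% had more. The body peaks were spread along the gene, 14 before its midpoint and 10 after it, and the last 13.9 kb held none. Of the body peaks 6 also lay in the lncRNA gene Gm32999. Beside the gene, 2 of the 5 peaks lay in Pou2f1, which overlaps the upper end of Cd247, and 1 in Creg1. In the 100 kb beyond the 5 kb flank on both sides the density was 0.37 per kb, above that at Cd247 itself.

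The co-receptor genes were near the middle of autosomal genes by the density in their bodies, which 54.2% exceeded for Cd4 and 41.1% for Cd8a. Cd4, which binds MHC class II, lies on chromosome 6 from 124864693 to 124888247 and had 7 peaks within 5 kb (2.81 to 14.4), of which 2 were in its 23.6 kb body. Those 2 were at 124866056 to 124866168 and 124882168 to 124882232, and the 16.1 kb between them held none. A peak at 124888256 to 124888336 began just past the upper gene end, 2 more followed within 5 kb, and the other 2 lay in the neighbouring gene Gpr162. Cd8a, the alpha chain of the co-receptor for MHC class I, lies on chromosome 6 from 71373427 to 71379171 and had 2 peaks (0.242 to 7.22). They were at 71373496 to 71373528, at its start, and 4.36 kb before the gene. By density Cd4 had 0.209 peaks per kb and Cd8a 0.127, and their intervals (0.0839 to 0.430 and 0.0154 to 0.459) overlap. The surroundings differed: the 100 kb flanks had 0.355 peaks per kb at Cd4 and 0.08 at Cd8a.

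Per kb of span and flanks, the kinase genes were denser than all others of the 10 genes except Lat. Per kb of body, Cd3d (0.757) was denser than both Zap70 (0.666) and Lck (0.395). Lck, the Src family kinase that phosphorylates the CD3 and zeta chains, lies on chromosome 4 from 129548344 to 129573641 and had 13 peaks (6.92 to 22.2), 10 of them in its 25.3 kb body. Split at the midpoint of the gene, 7 body peaks were on the side of the upstream start and 3 on the other, and the last 5.6 kb held none. The other 3 peaks lay before the upstream start, 2 of them in Fam167b. Zap70, the kinase that docks on the phosphorylated chains, lies on chromosome 1 from 36761798 to 36782821 and had 17 peaks (9.90 to 27.2), 14 of them in its 21.0 kb body. Before the midpoint of the gene lay 12 of these and after it 2, with an empty stretch of 7.82 kb between 10.1 and 17.9 kb from the start. The other 3 peaks lay before the gene, 0.542 kb and more from its start. None of the Zap70 peaks lay in another protein-coding gene.

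Set against genes of 10 to 30 kb, whose median was 5 peaks, Zap70 was exceeded by 7.20% and Lck by 14.6% of the 6101 autosomal genes. Per kb, Zap70 had 0.548 (0.319 to 0.877), 4.47 times the autosomal median, against 0.225 in its 100 kb flanks. Lck had 0.368 (0.196 to 0.630), 3.003 times the median, against 0.295 in its flanks. The intervals of both kinases lie above the autosomal median and overlap each other. With peaks of at least 50 bp alone, Zap70 kept 11 (0.177 to 0.634 per kb) and Lck 7 (0.0797 to 0.409), and the interval of Lck then takes in the autosomal median of 0.0825. By role, the 2 kinase genes had 30 peaks in 66.3 kb of span and flanks, or 0.452 per kb (0.305 to 0.646). The 3 CD3 genes had 7 in 48.4 kb, or 0.145 per kb (0.0581 to 0.298). Between them lay the zeta chain at 0.287 (0.192 to 0.412) and the co-receptors at 0.183 (0.0835 to 0.347). The adaptors were lowest, at 0.0414 (0.0199 to 0.0762). Taken alone, Cd3d has an interval (0.0713 to 0.670) that overlaps those of both kinases.

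With flanks of 5 kb the adaptors had the highest and the lowest density of the 10 genes. Lat, the membrane scaffold that Zap70 phosphorylates, lies on chromosome 7 from 126363827 to 126369705 and had 10 peaks within 5 kb (4.795 to 18.4), or 0.630 per kb. Its 5.88 kb body held 2 of them, at 126367776 to 126367840 and 126368416 to 126368448. Of the other 8, 6 lay in Spns1, a neighbouring transporter gene whose span begins just past Lat, and 2 lay beyond the other gene end. Without the peaks in Spns1, Lat kept 4, or 0.252 per kb (0.0686 to 0.645), an interval that takes in the autosomal median. Its density per kb of body was 0.340 (0.0412 to 1.23), exceeded by 24.8% of autosomal genes, and lower than those of Cd3d (0.757), Zap70 (0.666) and Lck (0.395).

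Themis, which tunes receptor signalling in developing thymocytes, had no peak in its 215 kb on chromosome 10 (28668360 to 28883820) or within 5 kb of it. The nearest peaks were 38.4 kb below the gene (28629918 to 28629986) and 445 kb above it (29328836 to 29328944). The 699 kb between them held no peak, and 3 other protein-coding genes lie wholly in it, 2310057J18Rik, Soga3 and 9330159F19Rik. Between neighbouring autosomal peaks, 462 of 207169 distances were at least as long, and the median was 1.96 kb. Of the 2312 autosomal protein-coding genes over 100 kb, whose median was 12 peaks, 296 (12.8%) had no peak within 5 kb, Themis among them. Assembly gaps were not removed from these distances.

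**Figure D2:**
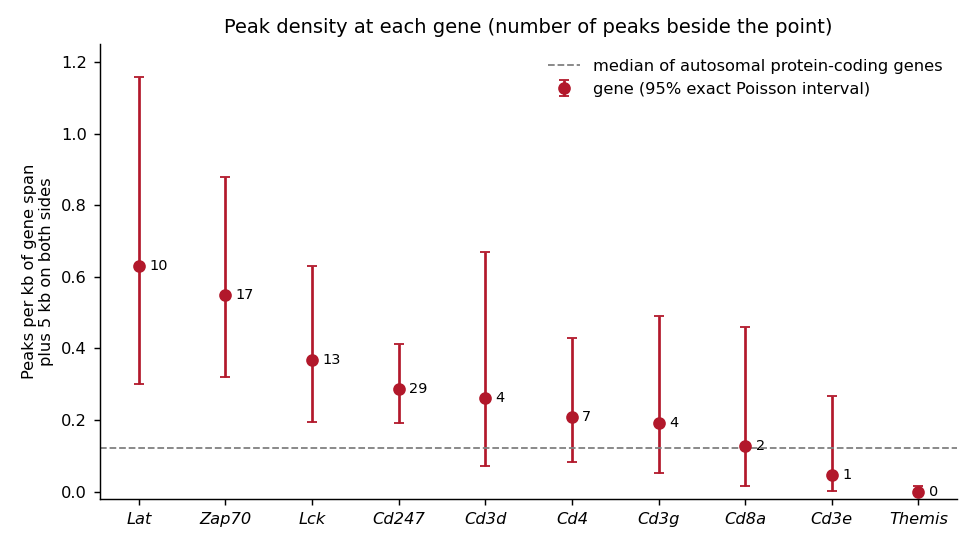
Peaks per kb of gene span plus 5 kb on both sides for the 10 genes, from the highest to the lowest, with exact Poisson intervals at 95% that cover counting error only. The number of peaks stands beside each point and the dashed line is the autosomal median of 0.123 per kb. The intervals of Lat, Zap70, Lck and Cd247 lie above the line and that of Themis below it, but for Lat this rests on 6 peaks in Spns1, without which its interval spans the line.

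In order of density the genes were Lat, Zap70, Lck, Cd247, Cd3d, Cd4, Cd3g, Cd8a, Cd3e and Themis. At 0.252 per kb, its value without the peaks in Spns1, Lat would stand behind Cd3d. The intervals of every pair of neighbours in this order overlap, down to Cd3e (0.00121 to 0.266 per kb) and Themis (0 to 0.0164). The median of the 10 genes was 0.235 peaks per kb, against 0.123 over the 20560 autosomal protein-coding genes, and 8 of the 10 lay above that median. A peak in the body was also found at 9 of the 10, against 69.5% of autosomal genes. The median splits autosomal genes evenly, and with 10 genes the distance of either count from its share was not tested. Against their own 100 kb flanks, 5 of the 10 were denser (Cd3d, Cd8a, Lck, Zap70 and Lat), against 45.5% of autosomal genes, so the count is near the background.

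**Figure D3:**
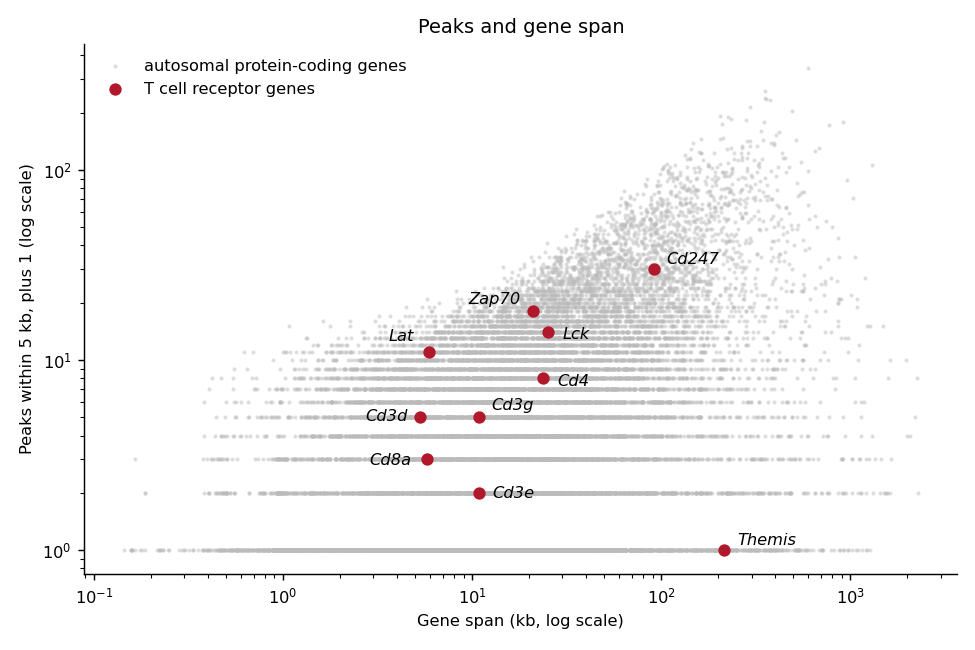
Peaks within 5 kb plus 1 against gene span in kb, both on log scales, for 20560 autosomal protein-coding genes (grey) and the 10 T cell receptor genes (red). Of genes of 10 to 30 kb, 7.20% had more peaks than Zap70, and of those up to 10 kb, 5.26% had more than Lat. Without the peaks in Spns1, Lat keeps 4. Cd3e lies low, and Themis lies on the lowest line, which marks genes with no peak.

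Most peaks lay inside the genes, whose summed length exceeds that of the flanks. The summed density was higher beside them, but much less so without Themis. Of the 85 peaks, 59 (69.4%, Wilson interval 59.0 to 78.2%) lay in the body of a T cell receptor gene. Of the 26 beside them, 13 lay in another protein-coding gene and 13 in none. Summed over the genes, with shared peaks counted for each, the bodies held 0.142 peaks per kb (0.108 to 0.183) and the flanks 0.280 (0.186 to 0.405), against 0.136 and 0.191 over autosomal genes. Without Themis, whose long body held none, the bodies had 0.295 per kb and the flanks 0.311. Bodies took 67.8% of the summed peaks, against 77.6% over autosomal genes. The 5 kb limit left out a peak 5063 bp from Lat and took in 1 that was 4960 bp from Cd247. Peak widths ran from 17 to 129 bp with a median of 65 bp, the same as the median of the whole list. Of the 85 intervals, 18 (21.2%) stood on more than 1 line, against 6.45% of all intervals, and each was counted once. All intervals include those far from genes, and the share for peaks near genes alone was not computed. Of the 18, 6 were at Lat, all in Spns1.

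Other genes of the pathway, taken from a list of 47, had a peak in every case, with a median of 0.355 per kb. The most peaks were at Nfatc1 (106), a transcription factor activated by calcium, Fyn (82), a Src family kinase, Pag1 (81), a membrane anchor for the inhibitory kinase Csk, Tec (76), a kinase, and Ubash3b (74), a phosphatase. Many of these genes also act in myeloid or B cells. Others had few: Cd28, the main co-stimulatory receptor, had 2, Trat1, an adaptor of the receptor complex, 5, Tespa1, a thymocyte signalling protein, 1 and Cd8b1, the partner of Cd8a, 4. These 4 genes were picked after their values were seen.

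The T cell receptor genes were set beside the genes of the other antigen receptor, which marrow B cells use. All 16 B cell receptor genes had a peak, with a median of 0.508 per kb, against 0.235 for the T cell receptor genes, and the most were at Plcg2 (102), Pik3ap1 (74), Syk (64), Lyn (46) and Dapp1 (41). Proteins in matching positions were set side by side by the density in span and flanks. Zap70 had 0.548 peaks per kb (0.319 to 0.877), and Syk, its relative in B and myeloid cells, 0.840 (0.647 to 1.07). Lck had 0.368 (0.196 to 0.630), against 0.372 (0.273 to 0.497) for Lyn and 0.294 (0.168 to 0.478) for Blk, Src family kinases of B cells. The CD3 genes Cd3d, Cd3g and Cd3e had 0.262, 0.192 and 0.0478, against 0.905 for Cd79a and 0.832 for Cd79b, the signalling chains of the B cell receptor. The interval of Cd3e (0.00121 to 0.266) lies below those of Cd79a (0.482 to 1.55) and Cd79b (0.415 to 1.49), that of Cd3g (0.0522 to 0.491) overlaps both, and so does that of Cd3d (0.0713 to 0.670). No test was made of these differences. Cd79a, Cd79b and Cd3d span 4.36, 3.22 and 5.28 kb, so the flanks make up most of their windows. In the bodies lay 9 of the 13 peaks of Cd79a and 3 of the 11 of Cd79b. For the CD3 genes it was 4 of 4 at Cd3d, 1 of 4 at Cd3g and 1 of 1 at Cd3e. The lists also differ in gene span, with a median of 16.0 kb for the T cell receptor genes and 42.8 kb for the B cell receptor genes. Over autosomal genes the median density was 0.178 per kb for spans of 10 to 30 kb and 0.124 for 30 to 100 kb.

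Markers of other marrow cells gave the context. All 16 granulocyte and monocyte genes had a peak, with a median of 0.685 per kb and the most at Csf1r (34), Spi1 (34), Itgam (33), Ltf (29) and Fcgr3 (26). Of 11 erythroid genes 10 had one, with a median of 0.272 per kb, the most at Zfpm1 (50), Sptb (43), Klf1 (8), Ermap (7) and Slc4a1 (6), and none at Alas2. Alas2 and Gata1 of this list lie on chromosome X, which the autosomal shares and medians leave out. So do Btk of the B cell receptor list and Foxp3 of the T lineage factors. T lineage transcription factors had one at 14 of 16 genes, with a median of 0.181 per kb. Ets1 (91), Ikzf1 (71), Runx3 (52), Lef1 (30) and Tcf3 (26) had the most, and Eomes had none. Genes of NK and cytotoxic cells had one at 8 of 12, with a median of 0.0832 per kb. Il2ra (12), Il2rb (10), Cd244a (9), Nkg7 (9) and Klrb1c (4) had the most, and Gzma, Gzmb, Klrk1 and Ncr1 had none. The part of cell composition in the values of the T cell receptor genes was not tested.

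**Figure D4:**
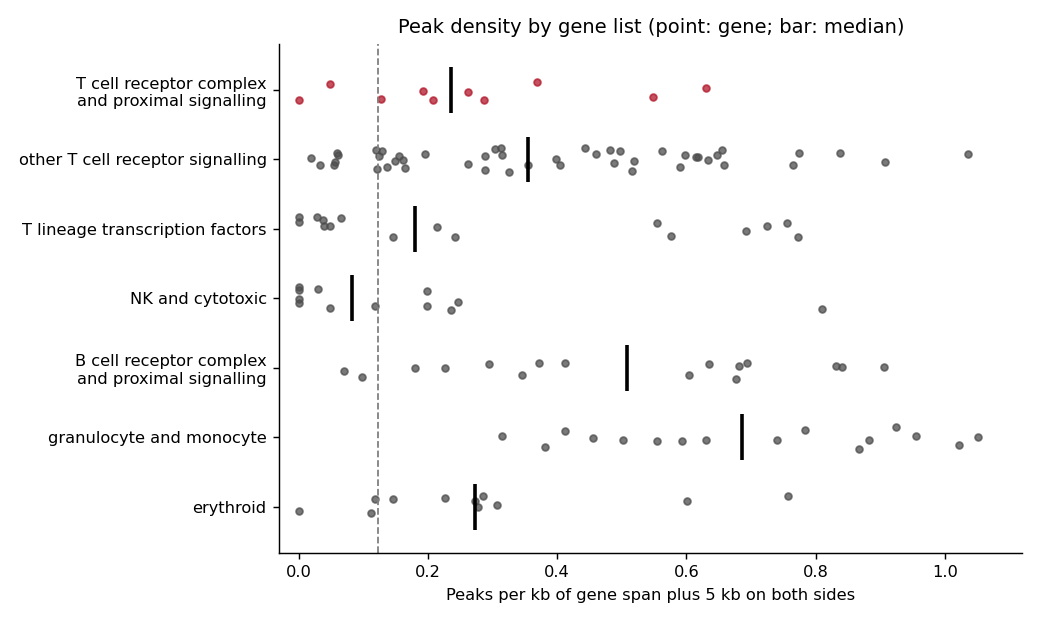
Peaks per kb of gene span plus 5 kb on both sides for each gene (points) of 7 gene lists, with the median of each list as a black bar and the autosomal median of 0.123 as a dashed line. The T cell receptor genes (red) have a median of 0.235, the B cell receptor genes 0.508 and the granulocyte and monocyte genes 0.685.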

How the data were processed

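Each of the 2 deposited lists, labelled as leukaemia replicates, holds a chromosome, a start and an end per line. Per the file headers, the authors called peaks with the program PICS, with settings of 99 bp for reads and 200 bp for fragments. Windows of 250 bp slid in steps of 20 bp, and forward and reverse reads had to reach 3 in a window and 10 in a region. The build, mm10, is from the submitters' processing notes. The aligner and any score threshold are not given in the sources used here. If the control libraries entered the calling, a peak could mark an excess over another library.

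Each distinct interval was counted once, at its midpoint. All starts and ends equal their single-precision value, so positions are rounded. Gene spans and promoter sequences came from RefSeq tables of GRCm38.p6. On chromosomes other than Y, 108 models placed before 3 Mb belong to scaffolds and were dropped. Counting was done in Python 3.11.15 with numpy 2.4.6, pandas 2.3.3 and scipy 1.17.1, and was tested on simulated peaks at 200 genes. Exact Poisson and Wilson intervals at 95% cover counting error only and treat peaks as independent.

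The 10 genes and the lists were chosen with earlier results of these data known. All 10 genes are named, with the genes that share their peaks. Of each other list the 5 genes with the most peaks and, where they exist, those with none are named. Not every such gene is reported here. All genes of the lists were matched except 1 of 12 erythroid genes. With 1 list of peaks, no test was made. Alternatives were repeated lines kept, other flanks, any overlapping base, wider peaks, either leukaemia list alone and, chosen after seeing the data, peaks outside other protein-coding genes.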

Additional observations from a re-analysis of the deposited data

How the results depend on the processing

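A peak was found at 9 of the 10 genes under every alternative except with peaks of at least 50 bp, which left 8 (Cd8a had none). The number of peaks was 59 in the gene spans alone, 68 with flanks of 2.5 kb, 108 with 10 kb, 103 with repeated lines kept, 57 with peaks of at least 50 bp, 72 outside other protein-coding genes and 85 with any overlapping base. The median per kb stayed between 0.219 and 0.293, apart from 0.140 with peaks of at least 50 bp, where the autosomal median was 0.0825. The share of peaks in the gene bodies was 81.9% outside other protein-coding genes, since that choice removes peaks beside the genes, 65.05% with repeated lines kept, 71.9% with peaks of at least 50 bp and 69.4% with any overlapping base. It was not recomputed for other flanks, which change its denominator. Without either leukaemia replicate, the values ranged from 85 to 85 peaks, because the lists are identical, which says nothing about stability. With no scores, no stricter score threshold could be tried, and widths took its place. No paired analysis was possible because normal marrow had no list here and no result comes from a test. Of the 10 single-gene counts, 6 moved by over 1.5 times with peaks of at least 50 bp (Cd3d, Cd3g, Cd8a, Lck, Zap70 and Lat), 4 in the spans alone, 3 with 2.5 kb, 2 with 10 kb, 1 with repeated lines kept and 1 outside other protein-coding genes. Lat is the gene that depends most on its neighbour, with 10 peaks, against 4 outside other protein-coding genes. Read depth limits all counts and is unknown.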

Other observations

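The loci of the receptor chains themselves, chosen after the data were seen, are assembled by rearrangement in T cells. The alpha locus Tcra on chromosome 14 (52427967 to 54224198), which contains the delta locus, held 55 peaks (exact Poisson interval 41.4 to 71.6) in 1796 kb, or 0.0306 per kb. The beta locus Tcrb on chromosome 6 (40891296 to 41558371) held 18 (10.7 to 28.4), or 0.0270 per kb, and the gamma locus Tcrg on chromosome 13 (19178042 to 19356476) held 4 (1.09 to 10.2), or 0.0224 per kb. A denser body than these loci was found at 64.4%, 64.99% and 65.8% of autosomal protein-coding genes, in the same order. The alpha constant gene Trac (54220521 to 54224198) held 4 peaks (1.09 to 10.2) in 3.68 kb and had 11 within 5 kb. Its density of 1.09 per kb of body rests on those 4 peaks and was exceeded by 1.18% of autosomal protein-coding genes. The delta constant gene Trdc held 1 peak. The beta constant genes Trbc1 and Trbc2 and the gamma constant genes Trgc1, Trgc2, Trgc3 and Trgc4 had none within 5 kb. Near-identical copies of gene segments in these loci can lose reads that map to several places, and the sources used here do not describe how the authors treated such reads.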
